A study of Mus musculus with 15 samples.

Results

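Mitochondrial ribosomal protein (MRP) genes were taken as the protein-coding mouse genes whose symbol is Mrpl or Mrps followed by a number and that had 10 or more counts in at least 3 of the 15 libraries. Of 78 such symbols, 77 met the rule, out of 29186 genes with at least 1 count. Of the 77, 50 encode proteins of the large subunit and 26 proteins of the small subunit, with Mrps18a and Mrps30 placed in the large subunit, where their proteins sit. Mrps36 was placed in neither, because its protein is now known as a component of the 2-oxoglutarate dehydrogenase complex. The remaining symbol, Mrpl53, never had more than 2 counts in a library and 11 in all, and 88.0% of its exon bases lie within Gm42688 on the same strand. The lowest count of any of the 77 in a library was 67.

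Mitochondria carry their own ribosome, which translates the few messenger RNAs of the mitochondrial genome into core subunits of the respiratory chain and the ATP synthase. Its ribosomal RNAs come from the mitochondrial genome, while all of its proteins are encoded in the nucleus, made in the cytosol and imported. Adipocytes are known to build up mitochondria as they differentiate.

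The cells were wild-type mouse embryonic fibroblasts (MEFs), cultured connective tissue cells, from BALB/c embryos of 10.5 days. MEFD0 is the starting culture in DMEM with 10% FBS. MEFD3plu cells had been exposed for 3 days to the same medium plus an adipogenic mixture of insulin (10 μg/mL), the glucocorticoid dexamethasone (1 μM), the PPARG agonist rosiglitazone (10 μM) and the phosphodiesterase inhibitor 3-isobutyl-1-methylxanthine (0.5 mM), and MEFD5plu cells had then gone back to growth medium until day 5. MEFD3min and MEFD5min cells were cultured for the same times without the mixture. Each of the 5 conditions had 3 libraries, numbered 1, 3 and 4, and values are given below in that order. No label says that the 3 came from separate cultures or embryos, so p-values measure only the spread between these libraries, which may be technical.

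The libraries held 24030558 to 37281126 counts. The 7 adipocyte markers (Adipoq, Fabp4 and others) summed to between 42.2 and 65.2 counts per 1000000 (CPM) in the untreated libraries and to between 7441 and 11430 in the treated ones, and the part of this change of cell state in the MRP results was not tested. The 8 fibroblast markers, such as Col1a1 and Pdgfra, summed to 18030 to 25590 CPM in MEFD3min and to 8373 to 11960 in the other conditions. Single markers moved apart from this sum, which is mostly collagens and Vim: S100a4 averaged 145.9 CPM in MEFD0, 11.9 in MEFD3min and 2.06 in MEFD3plu, and Thy1 93.1, 76.2 and 15.05 in the same order. Markers of macrophages, endothelium, epithelium, muscle and neurons stayed at or below 18.7 CPM per list in all libraries. The library of replicate 4 had the highest summed MRP level in 4 of the 5 conditions, and in those it deviated from its group in step with transcript length over all genes (Spearman -0.338 to -0.456 across 13203 genes of the same libraries). In MEFD3min, replicates 3 and 4 stood furthest apart over all genes. The chi-square per degree of freedom between their counts was 114, against 46.6 for replicates 1 and 3 and 26.9 for 1 and 4. Results that rest on MEFD3min replicate 4 are also given without it, and some are given without replicate 3.

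Reads of several MRP genes cannot be told apart from those of other genes, since the strand setting used in counting is not given in the sources used here. Of the 77 genes, 27 overlap a gene on the opposite strand, 7 overlap one on the same strand and 41 share at least 1 stretch of 50 bases with another gene or pseudogene, 8 of them over more than 10% of their length. The 23 genes free of all 3 are called clean below.

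**Figure D1:**
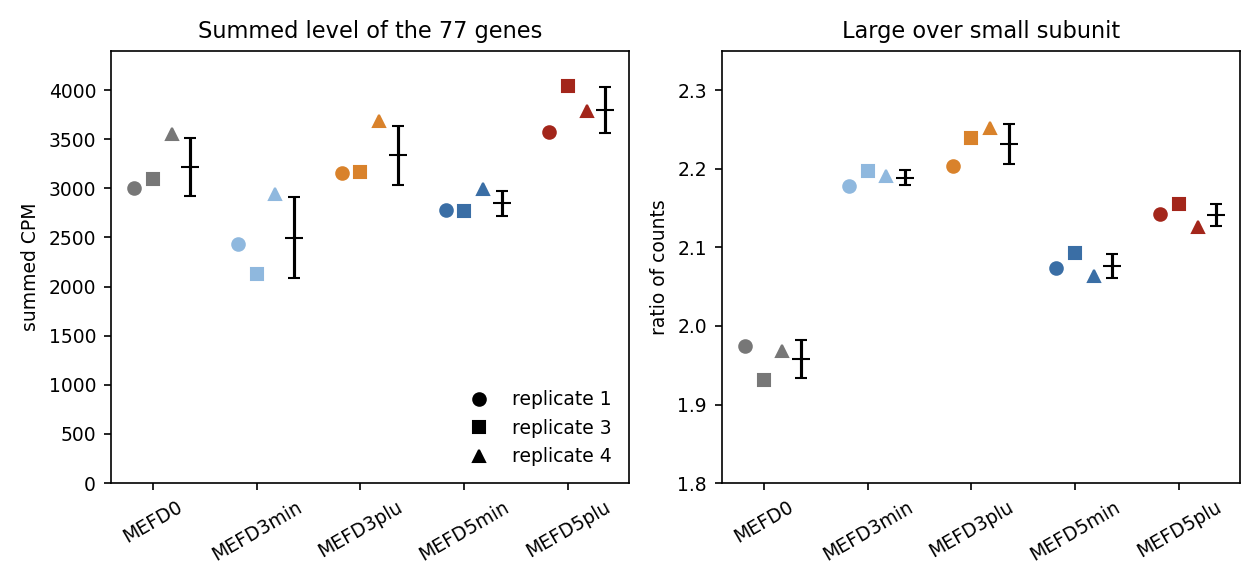
Summed CPM of the 77 MRP genes in each library (left) and the ratio of large to small subunit counts (right), by condition; symbols mark the replicate number, bars the mean and SD of 3 libraries. The 3 treated libraries lie above the 3 untreated ones at each day. With Mrps6 counted in the small subunit, the ratio is lowest in MEFD0 and highest in MEFD3plu. The axis of the ratio starts at 1.8.

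The MRP genes together made up a larger part of the counts in treated than in untreated cells at both days. Their share of all counts was 0.341% ± 0.0299 (SD, n = 3) in MEFD0. At day 3 it was 0.243% ± 0.0320 in MEFD3min and 0.329% ± 0.0184 in MEFD3plu, and at day 5 it was 0.298% ± 0.00937 in MEFD5min and 0.355% ± 0.0174 in MEFD5plu. As CPM after TMM scaling, in which library sizes are adjusted for composition, the sum was 3002, 3099 and 3554 in MEFD0. It was 2431, 2127 and 2940 in MEFD3min and 3153, 3169 and 3681 in MEFD3plu. At day 5 it was 2776, 2769 and 2992 in MEFD5min and 3574, 4042 and 3786 in MEFD5plu. The plot of summed levels shows that treated and untreated libraries did not overlap at either day, and that MEFD3min lay below every MEFD0 library. In bulk RNA, fewer cells of a type and less RNA per cell cannot be told apart. MEFD3min replicate 4 was high for its group in the MRP sum and also in the sums for cytosolic ribosomal proteins (80610 CPM against 62110 and 48910), nuclear-encoded respiratory chain subunits (11420 against 9431 and 8327) and mitochondrially encoded messenger RNAs (42630 against 31730 and 23920). Whether these share a source was not tested.

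The balance of the subunits moved less than the sum. The large subunit genes gave 1.98, 1.93 and 1.97 counts for each small subunit count in MEFD0, 2.18, 2.20 and 2.19 in MEFD3min and 2.20, 2.24 and 2.25 in MEFD3plu. The ratio was 2.07, 2.09 and 2.06 in MEFD5min and 2.14, 2.16 and 2.13 in MEFD5plu. With all small subunit genes counted, no condition overlapped another in this ratio, and all 4 later conditions lay above MEFD0. Mrps6, a small subunit gene with the highest level per length of all 77, was lower in each later condition than in MEFD0, as described further down. It averaged 174 CPM at day 0, against 81.9 in the untreated and 112 in the treated cells of day 5. The ratio was not computed without Mrps6, so its shift from MEFD0 cannot be read as one of the small subunit genes as a whole. Whether the other small subunit genes share the shift was not tested.

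After 3 days of treatment most MRP genes were higher than in untreated cells of the same day. Between MEFD3plu and MEFD3min, 52 of the 77 genes rose and 4 fell at an adjusted p under 0.05, or 67.5% and 5.2% of them, while 28.0% of the 15997 genes tested were called higher and 28.0% lower. The median log2 fold change of the 77 was 0.47, with the middle 50% between 0.11 and 0.70, against -0.0006 over all genes tested. In 46 genes all treated libraries lay above all untreated ones and in 1 gene below, as did 28.6% and 28.2% of all genes tested. Of the 8 fibroblast markers, 6 fell and 1 rose in the same comparison (median -1.46), and their part in the MRP result was not tested. The count of MRP genes that fell was 1 without MEFD3min replicate 4 or without MEFD3plu replicate 1, and 2 without MEFD3plu replicate 3; the number that rose stayed between 43 and 55 when any single library was left out. Among the 23 clean genes, 16 rose and 1 fell, with a median of 0.58.

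Both subunits took part. Of the large subunit genes 35 of 50 rose and 3 fell (median 0.44), and of the small subunit genes 17 of 26 rose (median 0.53). No small subunit gene was called lower by edgeR, at an unadjusted p under 0.05 or by DESeq2, each with a count of 0. Proteins with bacterial counterparts and those found only in mitochondria were both represented, with 20 of 30 and 15 of 20 rising in the large subunit, where 1 and 2 fell, and 9 of 16 and 8 of 10 rising in the small one. By place in the ribosome, 4 of 5 genes of the decoding and mRNA path rose, 2 of 3 stalk genes, 4 of 7 genes of the central protuberance and 2 of 6 genes around the peptide exit, while 1 gene fell in each of the last 2 places.

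The gene with the largest rise at day 3 was Mrpl12 (chromosome 11, 120484613 to 120489065, GRCm38), which encodes a protein of the stalk that recruits translation factors. It stood at 28.6, 25.5 and 31.8 CPM in MEFD3min and at 64.3, 64.5 and 78.2 in MEFD3plu, so the lowest treated library was above the highest untreated one. Its log2 fold change was 1.27 ± 0.12 (SE), edgeR adjusted p = 7.3e-08. A gene on the opposite strand, Gm16755, covers 13.1% of its exon bases. Mrpl10, which anchors the stalk, rose by 0.95 ± 0.07 (SE), edgeR adjusted p = 1.04e-08, and Mrpl11 at the stalk base had 0.11 ± 0.13 (SE), edgeR adjusted p = 0.485, which missed the threshold. Mrpl10 shares 14.1% of its exon bases with Gm11574 on the opposite strand.

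Of the next in size, Mrps26 encodes a small subunit protein found only in mitochondria. Its level was 23.5, 22.8 and 25.8 CPM in MEFD3min and 51.2, 54.5 and 49.8 in MEFD3plu, a log2 fold change of 1.11 ± 0.09 (SE), edgeR adjusted p = 1.28e-08. Mrpl16 and Mrpl20 encode large subunit proteins with bacterial counterparts. Mrpl16, a clean gene, read 20.5, 17.8 and 25.1 CPM without and 40.99, 42.5 and 51.2 CPM with treatment (1.09 ± 0.12 (SE), edgeR adjusted p = 5.22e-07). Mrpl20 read 36.7, 26.2 and 49.3 CPM without and 71.1, 68.5 and 91.3 CPM with treatment (1.04 ± 0.18 (SE), edgeR adjusted p = 8.91e-05), and it was among the 3 genes with the widest spread between replicates. Mrpl38, a clean gene for a protein of the central protuberance, went from 24.03, 27.9 and 27.5 to 52.2, 56.2 and 52.6 CPM (1.02 ± 0.08 (SE), edgeR adjusted p = 1.21e-08). None of these 4 genes had overlapping groups.

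In the decoding and mRNA path, Mrps12, the counterpart of the bacterial protein that guards accuracy of decoding, read 8.21, 7.83 and 9.85 CPM in MEFD3min and 14.1, 16.8 and 16.5 in MEFD3plu. It rose by 0.87 ± 0.12 (SE), edgeR adjusted p = 6.06e-06. Mrps7 (0.78 ± 0.10), Mrps2 (0.69 ± 0.08) and Mrps5 (0.44 ± 0.07) also rose, whereas Mrps24 had 0.10 ± 0.16 (SE), edgeR adjusted p = 0.624. Mrps7 has 11.9% of its exon bases shared with another gene's exons on the opposite strand.

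Around the peptide exit, Mrpl45, which ties the ribosome to the inner membrane, rose by 0.36 ± 0.11 (SE), edgeR adjusted p = 0.00977, and Mrpl44, which carries a ribonuclease-like fold, by 0.61 ± 0.13 (SE), edgeR adjusted p = 0.000682. Mrpl23, also at the exit, was the single gene with non-overlapping groups in the other direction. It stood at 4.73, 3.99 and 3.87 CPM in MEFD3min and 2.32, 2.88 and 2.88 in MEFD3plu and fell (-0.64 ± 0.18 (SE), edgeR adjusted p = 0.00651). It is also the gene with the lowest level of the 77. Of its length 11.8% is shared with other genes, among them the pseudogene Mrpl23-ps1, so its values are uncertain.

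Other genes fixed for their roles were Mrpl3 (0.50 ± 0.09) and Mrpl15 (0.44 ± 0.11), core proteins of the large subunit, and Mrps22 (0.81 ± 0.14) and Mrps34 (0.90 ± 0.14), small subunit proteins specific to mitochondria, all of which rose. Mrps34 is uncertain, since Nme3 covers 37.0% of its exon bases on the same strand and Mapk8ip3 63.4% on the other. Mrpl58, a peptidyl-tRNA hydrolase that became a ribosomal protein, had 0.07 ± 0.12 (SE), edgeR adjusted p = 0.681, not past the threshold.

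At day 5, 2 days after the mixture was withdrawn, the MRP genes were again mostly higher in the treated cells. Between MEFD5plu and MEFD5min, 53 of 77 genes (68.8%) rose and 0 fell by edgeR, with 26.3% of all genes tested called higher and 24.2% lower. The count that fell was also 0 at an unadjusted p under 0.05 and by DESeq2. The median log2 fold change was 0.42, with the middle 50% between 0.25 and 0.55 and all values between -0.06 and 0.96, against 0.01 over all genes. In 64 genes the treated libraries lay wholly above the untreated ones and in 0 below, against 32.5% and 29.6% of all genes tested. With scaling by total counts alone the median was 0.26, on a scale where the median of all genes was -0.15. The values were spread less widely than at day 3, with an SD across the 77 genes of 0.22 against 0.41.

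Of the large subunit genes 35 of 50 rose (median 0.44), and of the small subunit genes 17 of 26 (median 0.35). The 3 stalk genes all rose, as did 5 of the 6 exit-site genes, 4 of 7 of the central protuberance and 3 of 5 of the decoding path. Of the 23 clean genes 15 rose.

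Mrpl1, which forms the mobile stalk at the side where transfer RNAs leave, had the largest rise at day 5. Its level was 24.7, 21.3 and 23.98 CPM in MEFD5min and 39.05, 48.7 and 48.4 in MEFD5plu, with a log2 fold change of 0.96 ± 0.13 (SE), edgeR adjusted p = 1.01e-05. It read 23.9, 20.7 and 23.9 CPM in MEFD0, 19.96, 20.2 and 27.04 in MEFD3min and 30.5, 30.1 and 36.8 in MEFD3plu, so MEFD5plu was the highest condition for this gene. Mrps22, a clean gene, read 28.1, 29.4 and 31.9 CPM without and 48.97, 58.9 and 53.4 with treatment (0.85 ± 0.14 (SE), edgeR adjusted p = 0.000101). It had the widest range over the 5 conditions of all 77 genes, with the highest condition 2.74 times the lowest, where the median over the genes was 1.68 times.

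Mrpl51, Mrpl16 and Mrps14 followed. Mrpl51, a large subunit protein specific to mitochondria, read 67.05, 64.6 and 74.2 CPM in MEFD5min and 104, 124 and 119 in MEFD5plu (0.75 ± 0.13 (SE), edgeR adjusted p = 0.000167). Mrps14, in the head of the small subunit, read 40.6, 34.9 and 44.5 CPM without and 60.4, 70.99 and 64.5 CPM with treatment (0.70 ± 0.16 (SE), edgeR adjusted p = 0.00128). Mrpl16, also among the 5 largest rises at day 3, read 24.3, 26.7 and 22.8 CPM without and 39.8, 40.9 and 43.4 CPM with treatment (0.75 ± 0.12 (SE), edgeR adjusted p = 5.29e-05). The groups did not overlap in any of the 5 genes with the largest rise.

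Counting both days, 35 of the 77 genes rose at both, 17 at day 3 alone and 15 at day 5 alone. Of all genes tested, 28.0% were called higher at day 3 and 26.3% at day 5. The share of all genes called at both days was not computed, so these joint counts have no background beside them. The 6 genes with no call at either day were Mrpl14, Mrpl40, Mrpl52, Mrps15, Mrps24 and Mrps33, named here after their values were seen. Mrpl54, Mrpl48 and Mrps36 were called lower at day 3 and higher at day 5, and Mrpl23 was called lower at day 3 alone. A call at one day and not at the other does not by itself show a difference between the days, which the interaction tests.

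**Figure D2:**
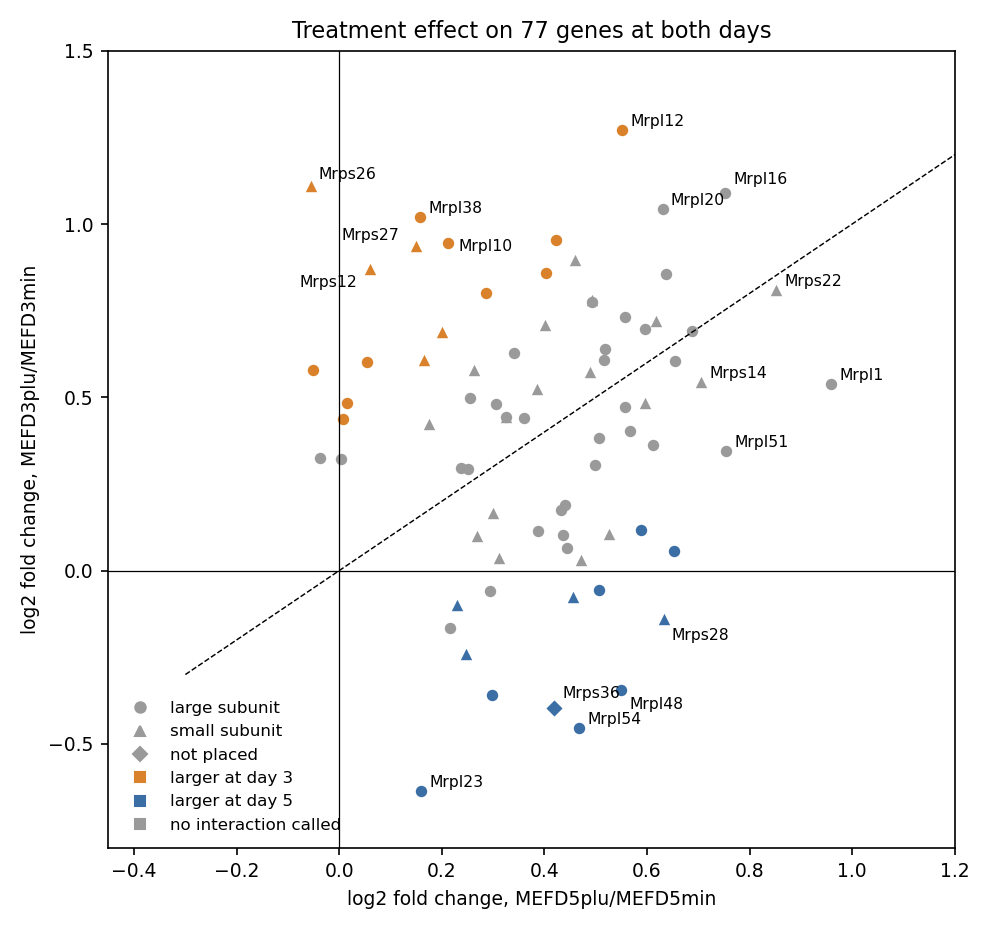
Log2 fold change of each of the 77 MRP genes with treatment at day 5 (horizontal) and at day 3 (vertical); shape marks the subunit, colour the call of the treatment by day interaction and the dashed line equal effects. Of the 77 points, 65 lie above 0 at day 3 and 74 right of 0 at day 5; the day 3 values range from -0.64 to 1.27 and the day 5 values from -0.06 to 0.96.

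The treatment effect differed between the days for 27 MRP genes. Taken as the day 3 log2 fold change minus the day 5 one, the interaction was positive in 15 genes (19.5%) and negative in 12 (15.6%), while 22.6% of all genes tested were called positive and 25.8% negative. The median over the 77 was 0.08, against -0.03 over all genes. These counts were sensitive to single libraries and to scaling. Without MEFD3min replicate 4 there were 26 positive and 6 negative calls, without MEFD3min replicate 3 the negative calls numbered 22, without MEFD3plu replicate 3 or MEFD5plu replicate 3 they numbered 6, and total-count scaling gave 29 positive and 6 negative on a scale where the median of all genes was 0.15. The median of the 77 was -0.04 without MEFD3min replicate 3 or without MEFD3plu replicate 4, 0.16 without MEFD3min replicate 4, 0.05 without MEFD3min replicate 1 and 0.03 without MEFD5min replicate 4 or without MEFD5plu replicate 1. The 10 genes named next kept their calls in all of these.

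Genes with a larger rise at day 3 included Mrps26, Mrpl38, Mrps12, Mrps27 and Mrpl10. Mrps26 went from 26.9, 30.6 and 27.8 CPM in MEFD5min to 28.6, 27.9 and 25.4 in MEFD5plu, and its interaction was 1.17 ± 0.13 (SE), edgeR adjusted p = 1.23e-06. Mrpl38 read 27.7, 31.9 and 29.4 CPM without and 34.4, 33.1 and 31.7 CPM with treatment at day 5 (interaction 0.86 ± 0.12 (SE), edgeR adjusted p = 1.22e-05). Mrps12 read 10.4, 12.2 and 10.5 CPM without and 10.9, 11.6 and 11.8 CPM with treatment at day 5 (interaction 0.81 ± 0.16 (SE), edgeR adjusted p = 0.000616). At day 5 these 3 genes had log2 fold changes of -0.06 ± 0.09, 0.16 ± 0.08 and 0.06 ± 0.12, and none of the 3 was called at day 5. Mrps27, a small subunit protein with RNA-binding repeats, had 0.94 ± 0.09 at day 3 and 0.15 ± 0.09 at day 5 (interaction 0.79 ± 0.12 (SE), edgeR adjusted p = 5.92e-05); 24.2% of its exon bases lie opposite another gene. Mrpl10 had 0.95 ± 0.07 and 0.21 ± 0.07 (interaction 0.73 ± 0.11 (SE), edgeR adjusted p = 2.63e-05).

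The genes with the opposite pattern were led by Mrpl54, a clean gene for a large subunit protein specific to mitochondria. It read 35.9, 28.9 and 44.5 CPM in MEFD3min, 23.8, 25.5 and 30.3 in MEFD3plu, 35.8, 36.1 and 38.7 in MEFD5min and 49.8, 55.8 and 47.4 in MEFD5plu. Its interaction was -0.92 ± 0.20 (SE), edgeR adjusted p = 0.000947. Mrpl48, of the central protuberance, read 24.4, 19.3 and 28.6 CPM in MEFD3min against 18.1, 16.6 and 22.2 in MEFD3plu. At day 5 it read 22.7, 22.4 and 25.01 CPM in MEFD5min against 31.2, 36.6 and 34.8 in MEFD5plu (interaction -0.89 ± 0.19 (SE), edgeR adjusted p = 0.000891). In both genes the treated libraries were above the untreated ones at day 5, and the day 3 groups overlapped. Mrps36 had -0.40 ± 0.15 at day 3 and 0.42 ± 0.15 at day 5 (interaction -0.82 ± 0.21 (SE), edgeR adjusted p = 0.00419). It shares 17.3% of its length with other genes, among them Mrps36-ps1 and Mrps36-ps2. The day 3 fall of these 3 genes was not called without MEFD3min replicate 4 (-0.29, -0.20 and -0.20 in the order given) or without MEFD3plu replicate 1.

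Mrps28, a clean gene for a small subunit protein, read 20.2, 16.1 and 25.1 CPM in MEFD3min against 17.2, 17.8 and 20.6 in MEFD3plu. At day 5 it read 20.3, 19.0 and 23.8 CPM in MEFD5min against 32.05, 33.3 and 32.7 in MEFD5plu, with no overlap between the groups. Its interaction was -0.77 ± 0.20 (SE), edgeR adjusted p = 0.00387. Mrpl23 had an interaction of -0.80 ± 0.25 (SE), edgeR adjusted p = 0.0158, with log2 fold changes of -0.64 ± 0.18 at day 3 and 0.16 ± 0.18 at day 5.

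**Figure D3:**
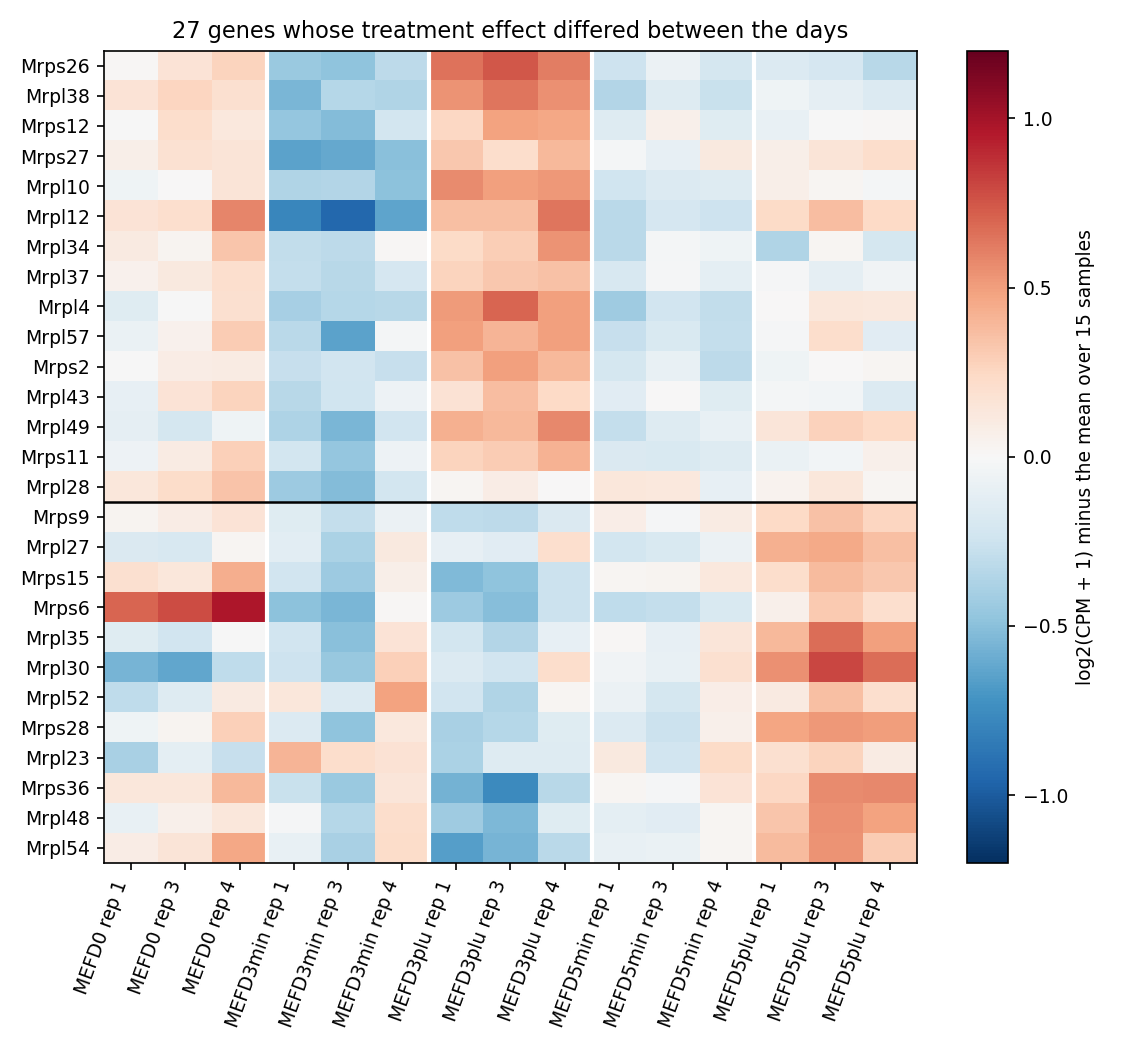
Level of the 27 MRP genes with a treatment by day interaction in the 15 libraries, as log2(CPM + 1) minus the gene's mean over all libraries; columns are grouped by condition, and the line separates the 15 genes with a positive from the 12 with a negative interaction. In the upper block the MEFD3plu libraries are high against MEFD3min, and in the lower block the MEFD5plu libraries are high against MEFD3plu.

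Base composition moved with part of this pattern. Across the 77 genes the GC content of the transcript had a Spearman correlation of 0.208 with the interaction, against 0.181 across all genes, of -0.285 with the day 5 fold change, against -0.203, and of 0.0893 with the day 3 fold change, against 0.0568. Of the 26 genes with the highest GC content 9 had a positive and 5 a negative interaction. Of the 26 in the middle 5 had a positive and 3 a negative one, and of the 25 with the lowest 1 and 4. The points share their libraries, and the part of base composition in the interaction was not tested.

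The untreated cells themselves changed between day 0 and day 3, with most MRP genes lower at the later day. Between MEFD3min and MEFD0, 49 MRP genes (63.6%) fell and 4 rose, while 31.4% of all genes tested were called higher and 28.6% lower. The median of the 77 was -0.37, against 0.04 over all genes, and 42 genes lay wholly below and 3 wholly above their day 0 libraries, against 29.1% and 31.1% of all genes. The 8 fibroblast markers summed to 18030 to 25590 CPM in MEFD3min against 8373 to 9417 in MEFD0, but 4 of them rose and 3 fell. Col3a1, for example, averaged 215.1 CPM in MEFD0 and 8681 in MEFD3min, and Vim 6542 and 2814. The part of these markers in the MRP result was not tested. Of the small subunit genes 17 of 26 fell and of the large subunit genes 31 of 50.

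Mrps6, a small subunit gene with a bacterial counterpart, fell most. It read 160.0, 169 and 193 CPM in MEFD0 and 69.3, 66.6 and 98.9 in MEFD3min, a log2 fold change of -1.15 ± 0.13 (SE), edgeR adjusted p = 6.22e-07. Its level was 72.2, 68.5 and 81.8 CPM in MEFD3plu, 79.3, 80.1 and 86.2 in MEFD5min and 102, 122 and 113 in MEFD5plu, below all MEFD0 libraries throughout. Genes on the same strand, Gm49711 and Slc5a3, cover 19.9% of its exon bases, so part of its counts may belong to them. Mrpl12 read 55.98, 57.5 and 75.3 CPM in MEFD0, and its fall to MEFD3min was -1.14 ± 0.12 (SE), edgeR adjusted p = 2.47e-07. Against MEFD0, the MEFD3plu libraries of Mrpl12 given above had a log2 fold change of 0.13 ± 0.11 (SE), edgeR adjusted p = 0.325, which missed the threshold.

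Mrpl18 (-0.92 ± 0.13), of the central protuberance, Mrpl42 (-0.85 ± 0.14) and Mrps18b (-0.82 ± 0.10), both specific to mitochondria, completed the 5 largest falls. Mrpl18 lies opposite Tcp1 over 10.1% of its exon bases and Mrps18b opposite another gene over 30.5%. The 4 genes that rose were Mrpl23 (0.68 ± 0.18), Mrpl24 (0.46 ± 0.12), Mrpl17 (0.40 ± 0.10) and Mrpl30 (0.39 ± 0.16), the last named after its value was seen. Of these, Mrpl17, Mrpl23 and Mrpl24 encode 3 of the 6 exit-site proteins. Mrpl24 is uncertain, with 26.3% of its exon bases opposite Rrnad1. Mrpl17, a clean gene, read 63.5, 69.9 and 80.1 CPM in MEFD0 and 87.6, 89.2 and 105 in MEFD3min (0.40 ± 0.10 (SE), edgeR adjusted p = 0.00173).

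Set against the starting cells, the treated cells of day 3 showed no common direction. Between MEFD3plu and MEFD0, 26 MRP genes (33.8%) rose and 14 (18.2%) fell, while 33.9% of all genes were called higher and 29.7% lower. The median was 0.06 against 0.07 over all genes, and it was -0.04 with total-count scaling and -0.01 without MEFD3plu replicate 4. The median was 0.02 without MEFD0 replicate 1, 0.16 without MEFD0 replicate 4, 0.14 without MEFD3plu replicate 1, 0.10 without MEFD3plu replicate 3 and 0.03 without MEFD5min replicate 4. The number that rose was 16 without MEFD3plu replicate 4, and the number that fell was 9 without MEFD3plu replicate 3. In 28 genes the treated libraries lay wholly above and in 15 wholly below the day 0 ones, against 36.6% and 32.5% of all genes. The MEFD3plu/MEFD3min and MEFD3min/MEFD0 comparisons share the MEFD3min libraries, so their values are not independent. In 58 of the 77 genes MEFD3min was the lowest of the 5 conditions, while the highest was MEFD5plu in 40, MEFD3plu in 25, MEFD0 in 10 and MEFD3min and MEFD5min in 1 each.

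The largest rises over day 0 were in Mrpl24 (0.64 ± 0.12), Mrps34 (0.61 ± 0.13), Mrpl49 (0.60 ± 0.09), Mrpl17 (0.59 ± 0.10) and Mrps18a (0.57 ± 0.11). Mrps18a, a clean gene whose protein sits in the large subunit, read 24.8, 24.8 and 31.7 CPM in MEFD0 and 40.1, 40.2 and 40.5 in MEFD3plu (0.57 ± 0.11 (SE), edgeR adjusted p = 0.000148). The largest falls were in Mrps6 (-1.23 ± 0.13), Mrps36 (-0.80 ± 0.15), Mrpl54 (-0.77 ± 0.14), Mrpl40 (-0.76 ± 0.11) and Mrps15 (-0.69 ± 0.12). Mrpl54 read 40.7, 42.5 and 52.9 CPM in MEFD0, and Mrps15, a clean gene, read 54.4, 52.2 and 64.6 in MEFD0 and 32.6, 33.7 and 39.5 in MEFD3plu.

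From day 3 to day 5 more MRP genes rose than fell in the untreated cells. Between MEFD5min and MEFD3min, 20 MRP genes (26.0%) rose and 1 fell, while 21.3% of all genes were called higher and 21.5% lower. The median was 0.18 against -0.03 over all genes, and 21 genes lay wholly above and 2 wholly below, against 23.5% and 23.3% of all genes. The count that rose depended on scaling, on the samples fitted and on single libraries. It was 38 with total-count scaling, which gave a median of 0.29, and 12 with only the compared samples. It was 44 without MEFD3min replicate 4 and 12 without MEFD3min replicate 1, without MEFD3min replicate 3 or without MEFD5min replicate 4, and 37 when all 5 libraries numbered 4 were left out. The median was 0.09 without MEFD3min replicate 3 and 0.30 without MEFD3min replicate 4. Mrps10 (0.66 ± 0.12), Mrps27 (0.61 ± 0.09), Mrps22 (0.60 ± 0.14), Mrpl18 (0.58 ± 0.13) and Mrpl12 (0.54 ± 0.12) rose most. Mrps10, in the head of the small subunit, read 41.8, 30.2 and 44.8 CPM at day 3 and 60.5, 60.4 and 63.2 at day 5 (0.66 ± 0.12 (SE), edgeR adjusted p = 0.000241). The gene that fell was Mrpl17 (-0.32 ± 0.10 (SE), edgeR adjusted p = 0.012), a call that was lost without MEFD3min replicate 4 or MEFD5min replicate 3.

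In the treated cells the genes moved both ways after withdrawal. Between MEFD5plu and MEFD3plu, 32 MRP genes (41.6%) rose and 14 (18.2%) fell, while 33.8% of all genes were called higher and 29.2% lower. The median was 0.20 against 0.06, and 35 genes lay wholly above and 15 wholly below, against 37.2% and 32.4% of all genes. Mrps36 (1.05 ± 0.15), Mrpl54 (0.94 ± 0.14), Mrpl48 (0.85 ± 0.13), Mrps28 (0.82 ± 0.14) and Mrpl35 (0.76 ± 0.14) rose most. Mrps26 (-0.92 ± 0.09), Mrpl38 (-0.70 ± 0.08), Mrpl34 (-0.56 ± 0.13), Mrps18a (-0.53 ± 0.11) and Mrpl10 (-0.51 ± 0.07) fell most. Mrpl34, a clean gene for one of the smallest large subunit proteins, read 27.1, 28.3 and 33.8 CPM in MEFD3plu and 17.6, 23.2 and 19.7 in MEFD5plu (-0.56 ± 0.13 (SE), edgeR adjusted p = 0.00149). Mrpl35 read 38.5, 34.9 and 41.9 CPM in MEFD3plu and 59.2, 71.9 and 63.8 in MEFD5plu (0.76 ± 0.14 (SE), edgeR adjusted p = 0.000133). Across the 77 genes this change had a Spearman correlation with GC content of -0.267, against -0.276 across all genes of the same libraries.

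The 3 Mrps18 paralogs encode related proteins at separate places in the ribosome, that of Mrps18a in the large subunit and the others in the small one. At day 3 Mrps18a (0.63 ± 0.11) and Mrps18b (0.52 ± 0.10) rose with treatment, and Mrps18c had 0.10 ± 0.17 (SE), edgeR adjusted p = 0.617. At day 5 all 3 rose, by 0.34 ± 0.11, 0.39 ± 0.10 and 0.53 ± 0.16. The difference between the paralogs was not tested. Mrps18c shares 23.2% of its exon bases with Gm43511 on the same strand.

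Levels differed far more between the genes than between the conditions. Per kilobase of annotated exon, the mean level over the 15 libraries ran from 0.692 CPM in Mrpl23 to 67.9 in Mrps6, with a median of 15.04. Mrpl52 (52.6), a clean gene, and Mrpl54 (47.6) followed Mrps6 at the top, and Mrpl48 (3.09) and Mrps34 (3.21) preceded Mrpl23 at the bottom. Exon length here is the union over annotated transcripts, so genes with long rare transcripts come out low. Mrpl32, Mrpl20 and Mrps33 varied most between replicates, with SDs of 0.26, 0.26 and 0.24 on the log2 scale. Mrpl32 was called higher with treatment at both days all the same (0.69 ± 0.18 and 0.69 ± 0.18), and Mrps33, which shares 13.3% of its length with other genes, at neither (0.04 ± 0.16 and 0.31 ± 0.16).

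The region upstream of the start site was read for 68 of the 77 genes, which have 74 promoters in RefSeq (GRCm38.p6; 250 bases before the start and 50 after). Motifs of factors known to act on nuclear genes for mitochondrial proteins were searched on both strands, and each motif was counted whether or not it overlapped another. Shares are set against all 32817 promoters and then against the 21230 promoters of protein-coding genes. The NRF1 motif GCGCANGCG was found in 16 of the 68 genes, or 21.6% of their promoters, against 6.24% and 8.57%. The ETS motif CCGGAAG, bound by GABPA among others, was found in 25 genes (33.8% of promoters against 8.86% and 11.6%). The YY1 motif AAGATGGCG was found in 8 genes (10.8% against 1.4% and 1.83%). The E-box CACGTG was found in 5 genes (9.46% against 7.15% and 7.83%), and the letters TNAAGGTCA, a site for estrogen-related receptors, in 0 (against 1.28% and 1.03%). MRP promoters were also richer in GC, with a median of 58.5% against 52.7%. In 11 genes at least 2 kinds of motif were found and in 25 none.

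The median log2 fold changes of genes with and without each motif are given as a description. For NRF1 the medians were 0.55 with and 0.48 without the motif at day 3 and 0.50 and 0.40 at day 5, and for ETS 0.48 and 0.48 at day 3 and 0.39 and 0.43 at day 5. For YY1 they were 0.61 and 0.48 at day 3 and 0.30 and 0.44 at day 5, and for the E-box 0.60 and 0.48 at day 3 and 0.52 and 0.42 at day 5. A match is a run of letters in a window, not a bound site, and the differences between these medians were not tested.

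Shown here are the 250 upstream bases of the 2 described genes with the most matches there, Mrpl17 and Mrpl45. Windows with many bases in annotated exons were left out before this ranking. Shown with them are 2 genes among the 5 largest rises at day 3, Mrpl12 and Mrpl20, which were picked after their values were seen. The bases are printed 5′ to 3′ on the strand of the gene with motif letters in capitals. Mrpl17 (chr7:105811088-105811337, minus strand) has an ETS match at -237 and NRF1 matches at -49 and -11 from the start site. Mrpl45 (chr11:97315466-97315715, plus strand) has NRF1 matches at -120 and -38, and a further one at 16 past the start. Mrpl12 (chr11:120484387-120484636, plus strand) has an NRF1 match on the opposite strand at -80, and Mrpl20 (chr4:155802628-155802877, plus strand) an E-box at -33. The start sites of RefSeq and GENCODE differ, so the last 12 bases of the Mrpl17 window, which include its NRF1 match at -11, and the last 24 of the Mrpl12 window lie within annotated exons.
Mrpl17: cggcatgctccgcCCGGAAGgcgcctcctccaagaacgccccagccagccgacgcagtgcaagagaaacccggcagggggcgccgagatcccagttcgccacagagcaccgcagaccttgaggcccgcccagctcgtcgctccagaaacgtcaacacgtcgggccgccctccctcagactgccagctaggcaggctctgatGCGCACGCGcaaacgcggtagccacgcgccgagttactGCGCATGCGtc
Mrpl45: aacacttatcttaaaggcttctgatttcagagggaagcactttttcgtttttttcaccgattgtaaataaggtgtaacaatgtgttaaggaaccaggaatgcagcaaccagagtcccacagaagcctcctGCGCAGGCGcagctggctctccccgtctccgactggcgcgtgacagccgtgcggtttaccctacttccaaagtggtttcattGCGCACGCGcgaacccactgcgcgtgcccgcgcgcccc
Mrpl12: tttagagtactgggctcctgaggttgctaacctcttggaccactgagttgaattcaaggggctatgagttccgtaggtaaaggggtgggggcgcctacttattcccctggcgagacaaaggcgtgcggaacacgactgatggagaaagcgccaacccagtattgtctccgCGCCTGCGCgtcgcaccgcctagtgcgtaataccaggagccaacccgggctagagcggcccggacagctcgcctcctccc
Mrpl20: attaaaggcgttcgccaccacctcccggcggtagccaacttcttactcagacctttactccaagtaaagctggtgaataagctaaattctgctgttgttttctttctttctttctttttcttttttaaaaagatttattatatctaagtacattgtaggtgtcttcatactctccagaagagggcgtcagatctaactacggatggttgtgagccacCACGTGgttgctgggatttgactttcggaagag

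**Figure D4:**
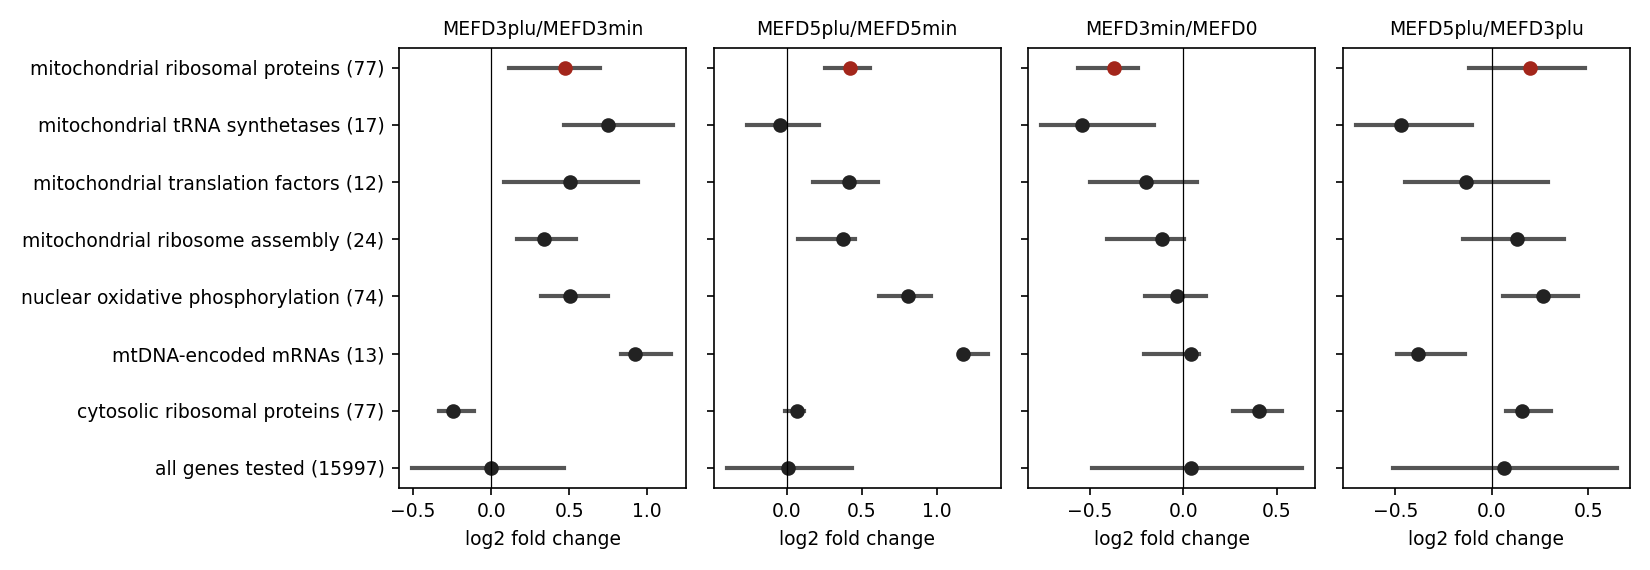
Median (dot) and middle 50% (bar) of the log2 fold changes of 8 gene lists in 4 comparisons. The MRP list has medians of 0.47 and 0.42 with treatment at days 3 and 5 and of -0.37 between MEFD3min and MEFD0; cytosolic ribosomal proteins have -0.25 and 0.07 with treatment and 0.41 between MEFD3min and MEFD0.

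Genes outside the rule that serve the same ribosome, its RNAs, its partners or the cytosolic ribosome were read from lists chosen by function. Their counts stand beside 28.0% of all genes called higher and 28.0% lower with treatment at day 3, and 26.3% and 24.2% at day 5. Where only rises or only falls of such a list are counted, edgeR called 0 genes the other way, which was also the count at an unadjusted p under 0.05 and by DESeq2, apart from 1 regulator with a lower level at day 3 in both of these.

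The further mitochondrial ribosomal proteins with other symbols were few and mixed. Dap3, a GTP-binding small subunit protein, rose at both days (0.54 ± 0.10 and 0.46 ± 0.10), as did Ptcd3, which sits near the mRNA entrance (0.95 ± 0.10 and 0.48 ± 0.10). Aurkaip1 had 0.01 ± 0.14 (SE), edgeR adjusted p = 0.958 at day 3 and rose at day 5 (0.68 ± 0.14 (SE), edgeR adjusted p = 0.000685). Chchd1 (0.28 ± 0.19 and 0.12 ± 0.19) and Gadd45gip1 (-0.19 ± 0.12 and 0.15 ± 0.12) were called at neither day. Of these 5, 2 rose at day 3 and 3 at day 5.

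The RNAs that the ribosome contains and translates were higher with treatment at both days. All 13 mitochondrially encoded messenger RNAs rose, with a median log2 fold change of 0.92 at day 3 and 1.18 at day 5. Their counts were very uneven. In MEFD3plu, the highest condition for mt-Nd3 and mt-Nd4l, these averaged 2.52 and 1.95 CPM, against 19780 for mt-Co1, so their values are uncertain. In the same condition mt-Co2 and mt-Co3 averaged 24.05 and 35.0 CPM, also far below mt-Co1. The source of this unevenness was not tested. The 2 mitochondrial ribosomal RNAs, mt-Rnr1 (0.86 ± 0.19 and 2.98 ± 0.19) and mt-Rnr2 (1.14 ± 0.22 and 1.83 ± 0.22), rose as well, although libraries selected for polyadenylated RNA capture them only in part. Nuclear-encoded subunits of the respiratory chain and ATP synthase, which are assembled with the products of that translation, rose in 51 of 74 cases at day 3 (median 0.51) and in 70 of 74 at day 5 (median 0.81). Uqcrq, of complex III, was among the largest at both days (1.57 ± 0.13 and 1.28 ± 0.13), and Ndufv1, of complex I, rose by 1.40 ± 0.06 at day 3. Between MEFD3min and MEFD0, where 49 of the 77 MRP genes fell, 11 of these 74 genes fell and 10 rose (median -0.03). These shares, 14.9% and 13.5%, were below the 28.6% and 31.4% of all genes tested.

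The same comparisons were read for the ribosomal proteins of the cytosol. Of 77 such genes, 1 rose and 15 fell with treatment at day 3 (median -0.25), and 4 fell at day 5 (median 0.07). The shares that fell, 19.5% and 5.2%, were below the 28.0% and 24.2% of all genes tested. Between MEFD3min and MEFD0, 43 rose and 3 fell (median 0.41), against 31.4% and 28.6% of all genes. Many of these genes have near-identical processed pseudogenes, so their counts are uncertain. Rps14, for example, had -0.56 ± 0.17 at day 3 and 0.80 ± 0.17 between MEFD3min and MEFD0.

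Factors that serve the mitochondrial ribosome were mostly higher with treatment at day 3. Of 12 translation factors, 7 rose at day 3 (median 0.50) and 8 at day 5 (median 0.41). Gfm1, an elongation factor, had 1.75 ± 0.08 at day 3 and 0.27 ± 0.08 at day 5. Of 17 mitochondrial aminoacyl-tRNA synthetases, which charge transfer RNAs, 14 rose at day 3 (median 0.75), whereas 5 rose and 3 fell at day 5 (median -0.04). The interaction was positive for 10 of the 17 and negative for 1, against 22.6% and 25.8% of all genes. Mars2, for methionine, had the largest change at day 3, with 2.45 ± 0.15 (SE), edgeR adjusted p = 3.99e-10 at day 3 and -0.70 ± 0.15 (SE), edgeR adjusted p = 0.000823 at day 5. Of 24 ribosome assembly factors 16 rose and 2 fell at day 3 (median 0.34) and 13 rose and 3 fell at day 5 (median 0.37). Noa1, an assembly GTPase, had 1.28 ± 0.13 and -0.69 ± 0.14.

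Among 10 genes for mitochondrial DNA maintenance and transcription, 8 rose at day 3 (median 0.64), and 5 rose and 4 fell at day 5 (median 0.17). Polrmt, the mitochondrial RNA polymerase, read 15.9, 22.1 and 14.9 CPM in MEFD3min and 36.6, 36.5 and 29.9 in MEFD3plu (0.96 ± 0.16 (SE), edgeR adjusted p = 6.27e-05). At day 5 it read 20.5, 22.3 and 17.2 CPM in MEFD5min and 15.9, 12.3 and 14.1 in MEFD5plu (-0.50 ± 0.16 (SE), edgeR adjusted p = 0.0171). Tfam, which packages mitochondrial DNA and starts its transcription, had -0.08 ± 0.11 (SE), edgeR adjusted p = 0.565 at day 3 and 0.38 ± 0.11 (SE), edgeR adjusted p = 0.00923 at day 5.

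Of 9 transcriptional regulators known to act on nuclear genes for mitochondrial proteins, 4 (44.4%) rose at day 3, and 3 (33.3%) rose and 5 (55.6%) fell at day 5, against 28.0%, 26.3% and 24.2% of all genes tested. Ppargc1a, a coactivator induced in mitochondrial biogenesis, read 0.783, 0.983 and 0.370 CPM in MEFD3min and 10.3, 9.34 and 8.60 in MEFD3plu (3.69 ± 0.25 (SE), edgeR adjusted p = 9.22e-10), and 0.475, 0.818 and 0.784 in MEFD5min and 4.68, 4.77 and 5.04 in MEFD5plu (2.81 ± 0.26 (SE), edgeR adjusted p = 9.72e-08). Its relative Ppargc1b had 1.45 ± 0.24 (SE), edgeR adjusted p = 7.59e-05 at day 3 and 0.67 ± 0.27 (SE), edgeR adjusted p = 0.0532 at day 5. Esrra, an estrogen-related receptor, rose at both days (0.69 ± 0.08 and 0.62 ± 0.08). Myc rose at day 3 (1.56 ± 0.10) and fell at day 5 (-0.83 ± 0.10).

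Among the factors that bind the motifs above, Nrf1 had -0.06 ± 0.07 (SE), edgeR adjusted p = 0.528 at day 3 and -0.52 ± 0.07 (SE), edgeR adjusted p = 1.96e-05 at day 5. Gabpa had -0.06 ± 0.07 and 0.31 ± 0.07 and its partner Gabpb1 -0.18 ± 0.08 and -0.53 ± 0.08, and Yy1 had 0.01 ± 0.07 and -0.41 ± 0.07; in these 3 genes the day 3 value missed the threshold and the day 5 value passed it. Pprc1, a growth-responsive coactivator, had 0.12 ± 0.19 (SE), edgeR adjusted p = 0.611 at day 3 and -1.21 ± 0.19 (SE), edgeR adjusted p = 6.46e-05 at day 5.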

How the data were processed

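RNA was sequenced from 15 MEF libraries, 3 for each of 5 conditions, grouped by their labels. The deposited files hold raw read counts per Ensembl gene, which the authors made, per the labels, with TopHat2 2.1.0 and HTSeq on GRCm38. The labels name an unstranded kit and the methods a stranded one, and the strand setting of the counting is not given in the sources used here. Of 46603 gene identifiers 46005 were named from the chromosome annotation (GENCODE, GRCm38). Library totals were 24030558 to 37281126 counts.

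All 15 libraries were fitted at once with edgeR 4.0.16 (R 4.3.3): TMM scaling, filterByExpr, the quasi-likelihood test and Benjamini-Hochberg adjustment over 15997 genes, called at an adjusted p under 0.05. Log2 fold changes carry the SE of the fit, and CPM are counts per 1000000 of TMM-scaled library size. The interaction is the day 3 effect minus the day 5 effect. The test was checked on simulated counts. Figures used matplotlib 3.10.9.

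Alternatives were DESeq2 1.42.0, its size factors, total-count scaling, no filter, at least 10 counts in every sample, an adjusted p under 0.01, only the compared samples, a replicate block, each library left out in turn and, added after seeing the data, all libraries numbered 4 left out. Replicates of MEFD3min and MEFD3plu with the same number deviated together (r = 0.143, 0.228 and 0.360). The block was fitted over all conditions, and the pairing comes from the data and not from the labels. Differently numbered samples were not correlated for comparison.

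Named genes are the 5 largest rises and falls called without overlap in each comparison (for the interaction, called alone), the 3 highest and lowest levels per length, the 3 widest replicate spreads and genes fixed for their roles. The members and lists were chosen with earlier results of these data known. Counts of list members are given without a set test.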

Additional observations from a re-analysis of the deposited data

Results flagged for a closer look

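The treatment effect differed between day 3 and day 5, by the test of the interaction itself, in 27 of the 77 MRP genes, 19.5% of them with a positive and 15.6% with a negative interaction, against 22.6% and 25.8% of all genes tested. Of the 10 with the largest interactions, the day 3 effect exceeded the day 5 effect in Mrps26 (1.17 on the log2 scale), Mrpl38 (0.86), Mrps12 (0.81), Mrps27 (0.79) and Mrpl10 (0.73). It was below the day 5 effect in Mrpl54 (-0.92), Mrpl48 (-0.89), Mrps36 (-0.82), Mrpl23 (-0.80) and Mrps28 (-0.77). Base composition and the scaling of the libraries moved with these differences, and their part was not tested.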

How the results depend on the processing

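Across the alternatives, 467 of 522 values for the 77 genes as a group and their shares of counts stayed within 1.5 times (counts of genes) or within the spread between replicates (medians and shares), 52 moved further and 3 medians changed sign by more than that spread. Among the 467, 1 median changed sign within the spread, that of MEFD3plu/MEFD0 without MEFD3plu replicate 4 (-0.006). Of 6923 values for single named genes 6540 kept their call, 206 lost it, 177 gained it and 0 were called in the opposite direction. Changes of sign in values without a call are not covered by this count. The lowest count of any of the 77 genes in a library was 67. With 3 libraries per condition, 1 library could move a count of calls, and the cause of the changes below was not tested.

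With total-count scaling the interaction had 29 higher and 6 lower genes and a median of 0.27, the day 5 treatment median was 0.26, the MEFD3min/MEFD0 median -0.49, the MEFD3plu/MEFD0 median -0.041, which reversed its sign, and MEFD5min/MEFD3min had 38 higher and a median of 0.29. At an adjusted p under 0.01 the day 3 treatment comparison had 1 lower, the interaction 4 lower, MEFD3plu/MEFD0 16 higher and 9 lower, and MEFD5min/MEFD3min 10 higher and 0 lower. With only the compared samples the day 3 comparison had 2 lower and MEFD5min/MEFD3min 12 higher. Without the filter MEFD5min/MEFD3min had 2 lower. With the libraries numbered 4 left out it had 37 higher.

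With a replicate block, day 3 treatment had 53 higher and 6 lower, day 5 treatment 63 and 0, the interaction 18 and 18, MEFD3min/MEFD0 5 and 55, MEFD3plu/MEFD0 28 and 14, MEFD5min/MEFD3min 28 and 2, and MEFD5plu/MEFD3plu 37 and 14; the block moved no other count at day 3 by over 1.5 times. Outside the day 3 pair the correlations of same-numbered samples ran from -0.152 to 0.180. Those of MEFD0 were all positive with MEFD3min (0.084, 0.132 and 0.180) and with MEFD3plu (0.124, 0.071 and 0.110). Differently numbered samples were not correlated for comparison, so whether the numbers pair samples outside day 3 was not tested.

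Leaving out single libraries gave 1 to 6 lower genes and medians of 0.36 to 0.60 for day 3 treatment; 13 to 26 higher, 6 to 22 lower and medians of -0.041 to 0.16 for the interaction, whose sign reversed without MEFD3min replicate 3 (-0.038) and without MEFD3plu replicate 4 (-0.041); and medians of -0.48 to -0.27 for MEFD3min/MEFD0. For MEFD3plu/MEFD0 they gave 16 to 27 higher, 9 to 15 lower and medians of -0.006 to 0.16, and for MEFD5min/MEFD3min 12 to 44 higher, 0 to 2 lower and medians of 0.091 to 0.30. Without the 10 most abundant genes the MRP share was 0.360% in MEFD3plu, 0.318% in MEFD5min and 0.389% in MEFD5plu, and counting only the 23 clean genes it was 0.0969% in MEFD0, 0.0737% and 0.0982% in MEFD3min and MEFD3plu, and 0.0848% and 0.0991% in MEFD5min and MEFD5plu.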
